A study of Mus musculus with 27 samples.

Results

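The genes for mitochondrial ribosomal proteins were examined in lungs of mouse fetuses with Illumina bead arrays. They were taken as all genes whose symbol in the platform's annotation begins with Mrpl or Mrps followed by a number, which gave 76 genes among 19057 genes with a symbol of their own. Each gene was read from 1 chosen probe, the one with a detection p under 0.05 on the most of the 27 arrays and, where probes tied, the one with the highest mean log2 signal. On this rule 72 of the 76 genes passed the filter on detection, among 11945 genes tested. Mrpl19, Mrpl32, Mrpl45 and Mrps14 did not pass it.

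Every sample was the left lung lobe of fetuses labelled male, of the cross C57BL/6 X BALBc, at day 18 of gestation. In the group called EG in vitro, blastocysts derived in vitro had been transferred into pseudo-pregnant females. In the group called EG in vivo, the blastocysts transferred into pseudo-pregnant females had been derived in vivo. The Control fetuses had developed in vivo, without transfer, in females that ovulated naturally. Each group held 3 pools of tissue, its replicates, numbered 1 to 3, and each pool was measured on 3 technical arrays, which were averaged. The labels do not give the number of fetuses or litters in a pool, nor how gestation was timed after transfer, so the p-values below measure the spread between pools. The series asks how embryo culture and embryo transfer bear on gene expression in the fetal lung.

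Mitochondria carry their own ribosomes, which translate the few proteins encoded in mitochondrial DNA, all of them subunits of the respiratory chain and the ATP synthase. All proteins of these ribosomes are encoded in the nucleus, made in the cytosol and imported, and they assemble with mitochondrial ribosomal RNA into a small subunit, which reads the messenger RNA, and a large subunit, which forms the peptide bond. Part of them descend from bacterial ribosomal proteins, and the others are mitochondrion-specific additions.

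Some facts about the pools bear on what follows. Xist, the RNA of the inactive X chromosome that male cells do not normally make, read 10.90 on the log2 scale at its brightest probe in Control replicate 1, and between 4.56 and 5.45 in the other 8 pools. Genes of the Y chromosome were high in Control replicate 1 as well. There Eif2s3y read 11.53 and Kdm5d 9.39 at their brightest probes, against 10.42 to 11.27 and 9.08 to 9.61 in the other 8 pools. The pools numbered 3 were dimmer than the rest, with median raw signals of 113 to 127 on their arrays against 142 to 170 on the others. Counts are therefore also given without Control replicate 1 and without all pools numbered 3. The arrays detected between 19762 and 23449 of 45281 probes each. All 15 lung epithelium markers were detected on at least 1 array of each group, but 11 of them fell in each transfer group, with median log2 fold changes of the list of -3.09 and -2.74. Of all genes tested, 23% fell in EG in vitro, where the share for EG in vivo was 21.2%. The fold change against Control was below 0 for 14 of the 15 markers in each transfer group. Nkx2-1, the transcription factor that defines lung epithelium, read 13.15 to 13.60 in the Control pools, 13.25 to 13.45 in EG in vitro and 13.06 to 13.54 in EG in vivo.

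The start regions of the genes are shown first, because many nuclear genes for mitochondrial proteins are known to be driven through binding sites of NRF1 and of the ETS factor GABP near their start. RefSeq's promoter table (build GRCm38.p6) held windows of 300 bases, from 250 before to 50 after the start, for 67 of the 76 genes. The windows of the 4 genes with the highest fold changes in EG in vitro among those with a window, Mrps22 (chr9:98601630-98601929, minus strand), Mrps18b (chr17:35916391-35916690, minus strand), Mrpl12 (chr11:120484387-120484686, plus strand) and Mrps27 (chr13:99344536-99344835, plus strand), are given with that of Mrpl14 (chr17:45686099-45686398, plus strand), the 1 gene that fell. They are written 5′ to 3′ on the gene's strand, and capitals mark matches to the motifs described next.
Mrps22: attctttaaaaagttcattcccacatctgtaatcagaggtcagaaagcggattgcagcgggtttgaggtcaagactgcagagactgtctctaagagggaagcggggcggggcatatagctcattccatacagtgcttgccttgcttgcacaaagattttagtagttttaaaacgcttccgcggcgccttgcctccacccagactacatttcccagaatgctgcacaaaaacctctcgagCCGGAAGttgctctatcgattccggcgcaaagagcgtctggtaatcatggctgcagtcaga
Mrps18b: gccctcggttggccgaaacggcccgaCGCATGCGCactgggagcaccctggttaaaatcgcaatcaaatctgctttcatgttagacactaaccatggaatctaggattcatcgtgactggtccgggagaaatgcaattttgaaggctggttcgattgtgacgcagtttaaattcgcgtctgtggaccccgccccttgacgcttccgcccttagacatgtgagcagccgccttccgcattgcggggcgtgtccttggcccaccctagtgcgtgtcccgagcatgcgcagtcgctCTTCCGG
Mrpl12: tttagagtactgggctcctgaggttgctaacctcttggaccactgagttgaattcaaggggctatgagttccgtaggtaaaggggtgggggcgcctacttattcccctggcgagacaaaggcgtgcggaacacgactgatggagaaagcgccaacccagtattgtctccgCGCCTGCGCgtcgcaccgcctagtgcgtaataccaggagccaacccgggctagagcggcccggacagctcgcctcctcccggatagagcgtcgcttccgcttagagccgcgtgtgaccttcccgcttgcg
Mrps27: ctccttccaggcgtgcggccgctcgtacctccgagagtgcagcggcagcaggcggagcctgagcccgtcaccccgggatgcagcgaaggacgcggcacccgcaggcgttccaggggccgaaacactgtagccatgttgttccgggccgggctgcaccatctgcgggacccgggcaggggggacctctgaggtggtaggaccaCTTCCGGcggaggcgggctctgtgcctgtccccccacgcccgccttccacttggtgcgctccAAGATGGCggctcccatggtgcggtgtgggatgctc
Mrpl14: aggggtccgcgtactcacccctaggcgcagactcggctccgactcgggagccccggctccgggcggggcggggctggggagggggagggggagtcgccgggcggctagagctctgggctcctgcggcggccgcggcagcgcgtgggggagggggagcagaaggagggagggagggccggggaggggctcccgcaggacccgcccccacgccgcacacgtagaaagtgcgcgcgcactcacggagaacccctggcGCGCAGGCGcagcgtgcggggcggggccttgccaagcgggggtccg

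Motifs were searched on both strands as exact letters, and a match describes the sequence only. The NRF1 motif GCGCANGCG was in the windows of 16 of the 67 genes, or 23.9%, against 9.63% of 17492 protein-coding genes in the same table. Of the 5 windows above, those of Mrps18b, Mrpl12 and Mrpl14 hold it. The ETS core CCGGAAG was in 26 of the 67, or 38.8%, against 12.9% of all, and is marked in Mrps22, Mrps18b and Mrps27. The YY1 motif AAGATGGC was in 12 of the 67, or 17.9%, against 3.57% of all, and is marked in Mrps27. The CCAAT box (letters CCAAT) was in 37.3% of the genes and 42.3% of all, and the E box CACGTG in 7.46% and 8.91%. Among genes that rose in EG in vitro, 5 of 37 with a window held the NRF1 motif, 14 held the ETS core and 9 held the YY1 motif. Among those not called there, the counts were 8, 12 and 2 of 26. No test was made of these shares.

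In EG in vitro the genes for mitochondrial ribosomal proteins were mostly higher than in Control, by a modest amount each. At an adjusted p under 0.05 (limma, Benjamini-Hochberg over all 22958 probes kept), 43 of 72 genes rose and 1, Mrpl14, fell. Over all 11945 genes tested, 21.9% rose and 23% fell in this comparison, and of all probes kept 40.5% changed in either direction. The median log2 fold change of the 72 genes was 0.57, which is 1.49-fold, and the quartiles were 0.31 and 0.80. The median over all genes tested was 0.03. The fold change was above 0 for 69 genes and below 0 for 3. Few of the changes were large, since 5 of the 72 genes passed a log2 fold change of 1, and 9.36% of all genes tested did. All 3 EG in vitro pools lay above all 3 Control pools for 51 of the genes, against 28.6% of all genes, and below them for 1, against 28.8%.

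Without Control replicate 1 the count that rose was 28, without EG in vitro replicate 2 it was 27 and without EG in vitro replicate 3 it was 28. The shares of all genes tested that rose in these fits were 18%, 17.7% and 18%, against 21.9% with all pools. With the pools numbered 1 and 2 alone the count of the 72 genes that rose was 48, with a median of 0.45. There 28.4% of all genes tested rose, so calls grew over all genes as well. Within same-numbered pools the median difference between EG in vitro and Control was 0.51 for number 1, 0.48 for number 2 and 0.63 for number 3.

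**Figure D1:**
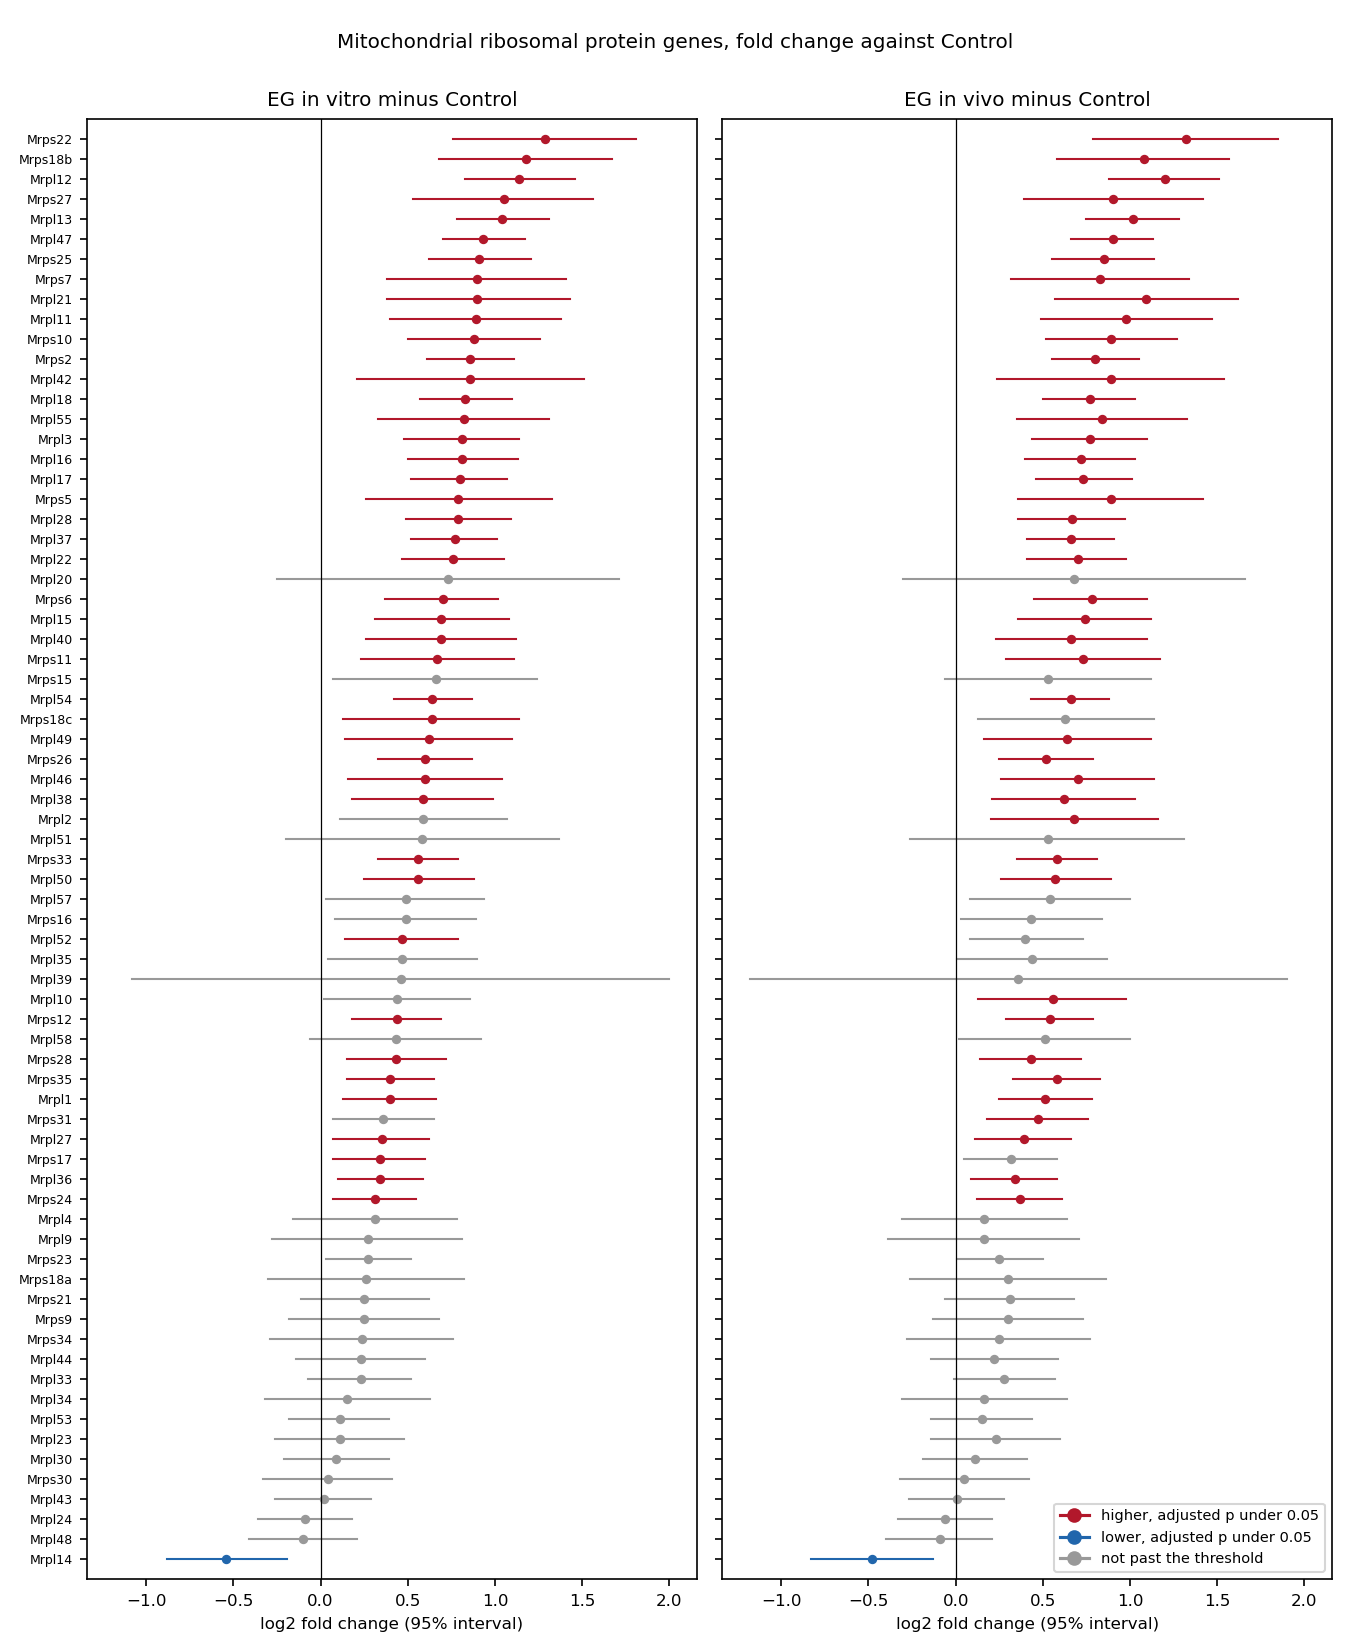
Log2 fold change against Control (horizontal axis, points, with 95% intervals as lines) of 72 genes for mitochondrial ribosomal proteins (vertical axis), EG in vitro on the left and EG in vivo on the right, ordered by the left panel. Red marks genes that rose, blue genes that fell and grey genes not past an adjusted p of 0.05. Of the genes, 43 are red and 1, Mrpl14, is blue in each panel.

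Among the proteins of the small subunit, Mrps22 changed most. It is a mitochondrion-specific protein whose loss causes mitochondrial disease in humans. Its log2 signal was 8.25, 8.17 and 8.66 in the Control pools, 9.46, 9.51 and 9.97 in EG in vitro and 9.40, 9.54 and 10.09 in EG in vivo. Every pool of either transfer group stood above every Control pool. The log2 fold change was 1.29 (SE 0.23, limma adjusted p = 0.00243) in EG in vitro and 1.32 (SE 0.23, adjusted p = 0.00234) in EG in vivo.

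Mrps18b is 1 of 3 paralogues in mammals related to bacterial protein S18. It read 9.21, 9.11 and 9.56 in Control, 10.28, 10.41 and 10.73 in EG in vitro and 10.26, 10.08 and 10.78 in EG in vivo. The lowest transfer pool was thus still above the highest Control pool. The log2 fold changes were 1.18 (SE 0.22, limma adjusted p = 0.00280) and 1.08 (SE 0.22, adjusted p = 0.00468). Its paralogues gave smaller values: Mrps18c had log2 fold changes of 0.64 (adjusted p = 0.0482) and 0.63 (adjusted p = 0.0509). Its call in EG in vitro was lost without any 1 pool other than Control replicate 2 and EG in vivo replicate 3. Mrps18a, whose protein sits in the large subunit, had 0.26 (adjusted p = 0.442) and 0.30 (adjusted p = 0.384).

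Mrps27, a mitochondrion-specific protein with pentatricopeptide repeats, an RNA-binding fold, read 7.01, 7.27 and 7.66 in Control, 8.22, 8.16 and 8.71 in EG in vitro and 8.16, 7.99 and 8.50 in EG in vivo. The transfer pools did not overlap with Control, and Control replicate 3 came nearest to the transfer pools. The log2 fold changes were 1.05 (SE 0.22, limma adjusted p = 0.00616) and 0.90 (SE 0.22, adjusted p = 0.0128). Mrps25, another mitochondrion-specific protein, rose by 0.91 (adjusted p = 0.000698) and 0.85 (adjusted p = 0.00114).

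Several homologues of bacterial small-subunit proteins rose as well. Mrps7, a protein of the subunit's head, read 10.82, 10.58 and 10.07 in Control, 11.42, 11.56 and 11.19 in EG in vitro and 11.47, 11.51 and 10.99 in EG in vivo, so that pool 3 was the lowest of each group and no transfer pool overlapped with Control. It rose by 0.90 (SE 0.22, limma adjusted p = 0.0127) and 0.83 (SE 0.22, adjusted p = 0.0184). Mrps10, the homologue of bacterial S10, rose by 0.88 (adjusted p = 0.00308) and 0.89 (adjusted p = 0.00305). Mrps2, the homologue of S2, rose by 0.86 (adjusted p = 0.000419) and 0.80 (adjusted p = 0.00069). Mrps5, the homologue of S5, rose by 0.79 (adjusted p = 0.0252) and 0.89 (adjusted p = 0.0162). Mrps12, the homologue of S12 at the decoding centre, where codon and anticodon are matched, rose by less, at 0.44 (adjusted p = 0.0133) and 0.54 (adjusted p = 0.00516). Mrps35, a mitochondrion-specific protein, rose by 0.40 (adjusted p = 0.0197) and 0.58 (adjusted p = 0.00362). In EG in vitro, Mrps5 missed the threshold without Control replicate 1 (0.67) or 2 (0.69) and without EG in vitro replicate 2 (0.82) or 3 (0.70), Mrps7 without EG in vitro replicate 2 (0.81), and Mrps35 without EG in vitro replicate 2 (0.42) or 3 (0.34). In EG in vivo, Mrps5 missed it without Control replicate 1 (0.76) or 2 (0.79), and Mrps7 without EG in vivo replicate 1 (0.76) or 2 (0.74).

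In the large subunit, Mrpl12 rose most in EG in vitro. Its protein is the homologue of bacterial L7/L12, the flexible stalk that recruits translation factors to the ribosome. It read 9.70, 9.71 and 9.84 in Control, 10.78, 10.75 and 11.14 in EG in vitro and 10.93, 10.83 and 11.07 in EG in vivo. Control pools were close together and well below all others. The log2 fold changes were 1.14 (SE 0.14, limma adjusted p = 0.000295) and 1.20 (SE 0.14, adjusted p = 0.000257). Mrpl11, at the base of the same stalk, rose by 0.89 (adjusted p = 0.0105) and 0.98 (adjusted p = 0.00706). Mrpl10, which anchors Mrpl12 to the ribosome, gave 0.44 (adjusted p = 0.0918), not past the threshold, in EG in vitro and rose by 0.56 (adjusted p = 0.0424) in EG in vivo, a call that was lost without Control replicate 1 or 2, EG in vitro replicate 2 or EG in vivo replicate 1 or 3. With the replicate block, which pairs pools by number, Mrpl10 passed in EG in vitro as well (0.44). Mrpl1, of the other stalk of the large subunit, rose by 0.40 (adjusted p = 0.0244) and 0.51 (adjusted p = 0.00837). In EG in vitro Mrpl1 missed the threshold without any 1 of the EG in vitro pools (0.39 to 0.41) and without Control replicate 2 (0.37) or 3 (0.38).

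Mrpl13, the homologue of bacterial L13, read 11.33, 11.34 and 11.47 in Control, 12.29, 12.52 and 12.46 in EG in vitro and 12.34, 12.34 and 12.52 in EG in vivo. Mrpl47, the homologue of L29 beside the exit of the peptide tunnel, read 8.81, 8.73 and 8.75 in Control, 9.69, 9.60 and 9.80 in EG in vitro and 9.69, 9.63 and 9.66 in EG in vivo. At the chosen probes of both genes the pools of a group were close together and the transfer groups stood clear of Control. Other kept probes of both genes spread more widely between pools and did not pass the threshold. That of Mrpl47, detected on all 27 arrays, read 7.64, 7.84 and 6.43 in Control. It gave 1.11 (limma adjusted p = 0.0642) in EG in vitro and 1.01 (adjusted p = 0.089) in EG in vivo. Mrpl13 rose by 1.04 (SE 0.12, limma adjusted p = 0.000191) and 1.02 (SE 0.12, adjusted p = 0.000237). Mrpl47 rose by 0.93 (SE 0.10, adjusted p = 0.000181) and 0.90 (SE 0.10, adjusted p = 0.000246). Mrpl21, the homologue of L21, read 9.79, 9.93 and 9.93 in Control, 10.63, 10.62 and 11.11 in EG in vitro and 10.75, 10.69 and 11.48 in EG in vivo, with pool 3 the highest of both transfer groups. It rose by 0.90 (SE 0.23, adjusted p = 0.0137) and 1.09 (SE 0.23, adjusted p = 0.00591).

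Mrpl28, the homologue of L28, rose by 0.79 (limma adjusted p = 0.0017) and 0.67 (adjusted p = 0.00432). Mrpl37 and Mrpl42 are mitochondrion-specific proteins of the large subunit. Mrpl37 rose by 0.77 (adjusted p = 0.00071) and 0.66 (adjusted p = 0.00171), and Mrpl42 by 0.86 (adjusted p = 0.0405) and 0.89 (adjusted p = 0.036). Mrpl42 missed the threshold in EG in vitro without any 1 of Control replicates 1 and 2, EG in vitro replicates 2 and 3 and EG in vivo replicates 1 and 2 (0.62 to 0.95). In EG in vivo it missed it without any 1 of Control replicates 1 and 2, EG in vitro replicate 2 and EG in vivo replicate 3 (0.63 to 0.89).

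**Figure D2:**
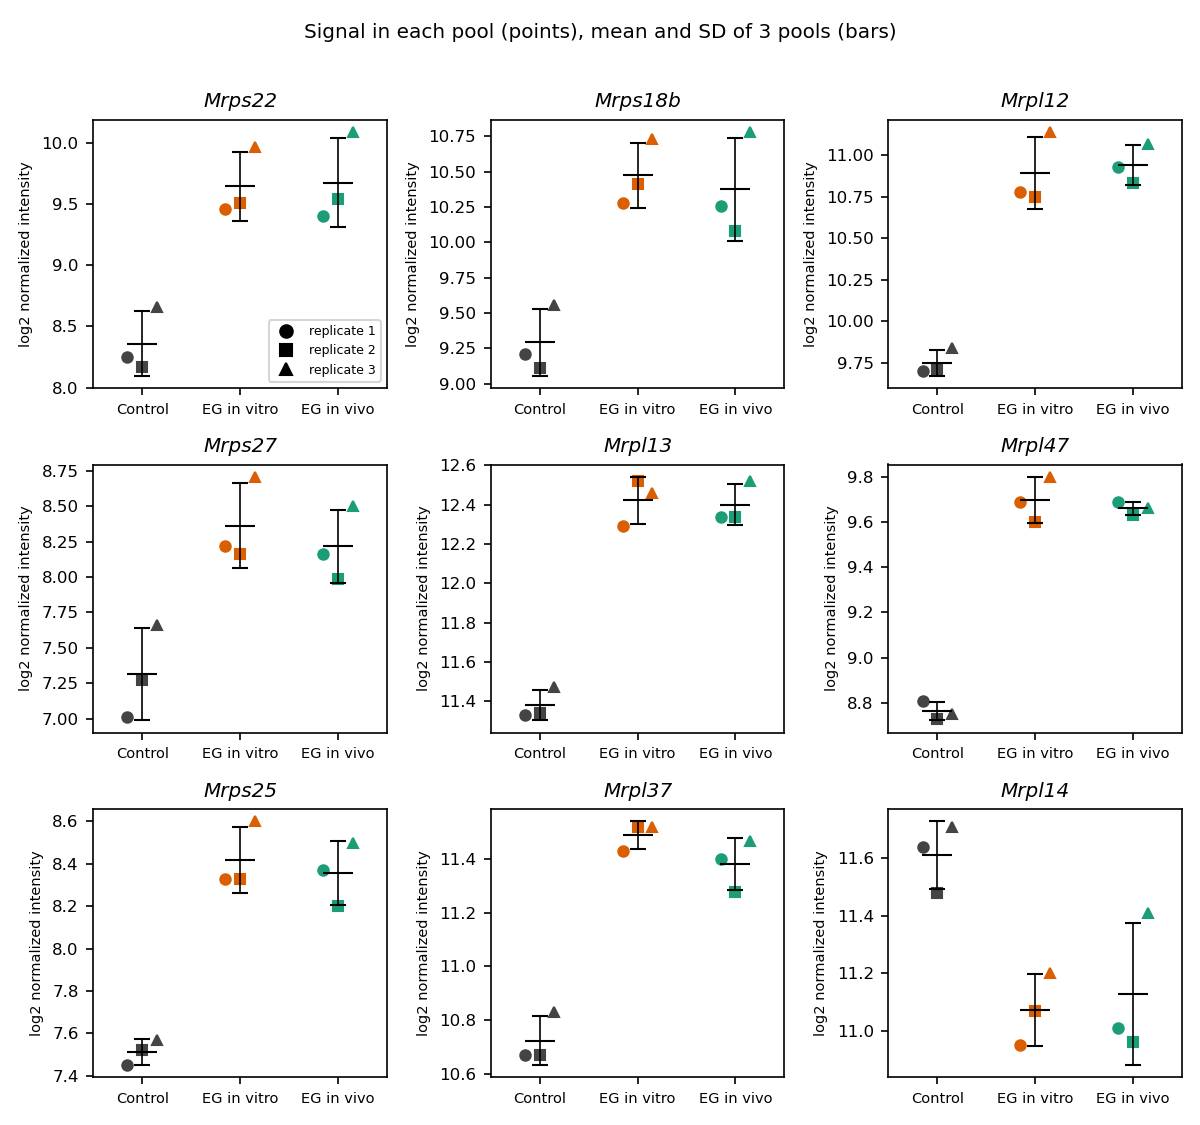
Log2 normalized signal (vertical axis, a scale of its own in each panel that does not start at 0) of 9 genes in each pool, by group. Symbols stand for pool numbers 1 to 3, and bars give the mean and SD of 3 pools. Both transfer groups lie above Control in 8 panels and below it for Mrpl14.

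Mrpl14 went the other way. Its protein is the homologue of bacterial L14 and lies on the face of the large subunit that meets the small one. It read 11.64, 11.48 and 11.71 in Control, 10.95, 11.07 and 11.20 in EG in vitro and 11.01, 10.96 and 11.41 in EG in vivo, so that all transfer pools were below all Control pools, with EG in vivo replicate 3 nearest. The log2 fold changes were -0.54 (SE 0.15, limma adjusted p = 0.0215) and -0.48 (SE 0.15, adjusted p = 0.0343). The platform measured it with 1 probe. The call was lost in EG in vitro without Control replicate 1, Control replicate 3, EG in vitro replicate 1 or EG in vitro replicate 2 (-0.54 to -0.48), which left 0 genes that fell. In EG in vivo it was lost without Control replicate 1, Control replicate 3, EG in vitro replicate 2, EG in vivo replicate 1 or EG in vivo replicate 2 (-0.48 to -0.40).

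The smallest changes past the threshold were rises close to the median of the genes or below it. Mrps24, the homologue of bacterial S3, read 12.28, 12.28 and 12.17 in Control, 12.48, 12.52 and 12.66 in EG in vitro and 12.57, 12.59 and 12.68 in EG in vivo. It rose by 0.31 (SE 0.11, limma adjusted p = 0.0460) and 0.37 (SE 0.11, adjusted p = 0.0249), and its transfer pools lay above all Control pools. Mrpl36 and Mrpl27, the homologues of L36 and L27, rose by 0.34 (adjusted p = 0.0328) and 0.35 (adjusted p = 0.0470) in EG in vitro and by 0.34 (adjusted p = 0.0372) and 0.39 (adjusted p = 0.0321) in EG in vivo. Mrps28 rose by 0.43 in both comparisons (adjusted p = 0.0242 and 0.0250).

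Several of these small changes passed in 1 comparison only. Mrps17, the homologue of S17, rose by 0.34 (limma adjusted p = 0.0466) in EG in vitro and gave 0.32 (adjusted p = 0.0598) in EG in vivo. Mrpl52, which is mitochondrion-specific, rose by 0.47 (adjusted p = 0.0287) and gave 0.40 (adjusted p = 0.0520). Mrps31, likewise mitochondrion-specific, gave 0.36 (adjusted p = 0.0518) in EG in vitro and rose by 0.47 (adjusted p = 0.0182) in EG in vivo. With the replicate block all 3 passed in both, at 0.32 for Mrps17 and 0.40 for Mrpl52 in EG in vivo and 0.36 for Mrps31 in EG in vitro. The mitochondrion-specific genes Mrpl50, Mrps33 and Mrps26 rose in both, by 0.56, 0.56 and 0.60 in EG in vitro and by 0.57, 0.58 and 0.52 in EG in vivo.

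Many of these calls were lost without a single pool. In EG in vitro, Mrps24, Mrps17 and Mrpl27 missed the threshold without any 1 pool other than EG in vivo replicate 3, at 0.26 to 0.41, and Mrpl36 without any 1 pool other than that and Control replicate 2, at 0.27 to 0.36. Mrpl52 (0.39 to 0.49) and Mrps28 (0.41 to 0.45) missed it without Control replicate 1 or 3 or any 1 EG in vitro pool. Against Control in EG in vivo, Mrpl36 missed it without any 1 pool other than Control replicate 2 (0.26 to 0.36), Mrpl27 without any 1 pool other than EG in vitro replicates 1 and 3 (0.33 to 0.43), and Mrps24 without Control replicate 1 or 3 or any 1 EG in vivo pool (0.33 to 0.39). There Mrps28 missed it without Control replicate 1 or 3 (0.41 to 0.42), and Mrps31 without Control replicate 1 (0.40).

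Setting EG in vivo against Control uses the same Control pools, so its values are not independent of those above. Here too 43 genes rose and 1, Mrpl14, fell, where 22.2% of all genes tested rose, 21.2% fell and 39.2% of all probes changed in either direction (limma, adjusted p under 0.05). The median log2 fold change was 0.57, or 1.48-fold, with quartiles of 0.32 and 0.75 and a median over all genes of 0.04. The values ran from -0.48 for Mrpl14 to 1.32 for Mrps22. Of the 72 genes, 5 passed a log2 fold change of 1, as did 8.90% of all genes tested. All EG in vivo pools lay above all Control pools for 52 genes, against 28.1% of all genes, and below them for 1, against 25.2%. Without Control replicate 1 the count that rose was 29, and with the pools numbered 1 and 2 alone it was 48. The shares of all genes tested that rose in these fits were 18.5% and 28.2%. Within same-numbered pools the median difference was 0.49, 0.48 and 0.71 for numbers 1, 2 and 3.

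Both subunits took part. For comparison, 21.9% of all genes tested rose and 23% fell in EG in vitro, and 22.2% rose and 21.2% fell in EG in vivo. In EG in vitro, 25 of 47 large-subunit genes rose and 1 fell, with a median log2 fold change of 0.56, and 18 of 25 small-subunit genes rose and none fell, with a median of 0.60. In EG in vivo, 26 of the 47 rose and 1 fell, with a median of 0.56, and 17 of the 25 rose, with a median of 0.58. Mrps18a and Mrps30 are counted with the large subunit, where their proteins sit. By origin, 27 of 43 homologues of bacterial proteins rose and 1 fell in EG in vitro, with a median of 0.64, and 16 of 29 mitochondrion-specific genes rose, with a median of 0.56. In EG in vivo the counts were again 27 higher and 1 lower of 43, with a median of 0.63, and 16 of 29, with a median of 0.54. Mrps18a and Mrps18b, relatives of bacterial S18 that are not its direct counterpart in the ribosome, are counted here as mitochondrion-specific. Once both are moved to the bacterial homologues, 28 of 45 of these rose in each transfer group against 15 of 27 mitochondrion-specific genes. Whether the subunits or the origins differ from each other was not tested.

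Some genes had fold changes near 0, and they were named after their values had been seen. Mrpl24, the homologue of L24, and Mrpl48 had fold changes just below 0 in both comparisons, of -0.09 and -0.10 on the log2 scale in EG in vitro (limma adjusted p = 0.579 and 0.61) and of -0.06 and -0.09 in EG in vivo (adjusted p = 0.752 and 0.637). Mrpl43 had 0.02 and 0.01, and Mrps30 had 0.04 and 0.05. The 95% intervals of the chosen probes of these genes reached at most 0.42 above 0 and no lower than -0.41. Another Mrpl43 probe gave 0.22 in both comparisons, with an interval up to 0.69 in EG in vitro. Another Mrpl48 probe gave -0.17 in EG in vivo, with an interval down to -0.56. Neither passed the threshold. Mrpl39, which resembles a threonyl-tRNA synthetase, gave no clear answer. It read 9.16, 9.90 and 7.32 in Control, 9.86, 9.60 and 8.31 in EG in vitro and 9.33, 9.64 and 8.49 in EG in vivo, with pool 3 far below the others of each group, and the groups overlapped. Its SD between pools of a group was 0.968. The next widest were Mrpl20, at 0.608, and Mrpl51, at 0.479, and the chosen probes of both were also lowest in pool 3 of every group. Another Mrpl51 probe, detected on all 27 arrays, was highest in pool 3 of both transfer groups. It rose by 0.84 (limma adjusted p = 0.0301) in EG in vitro and 1.03 (adjusted p = 0.0134) in EG in vivo. The remaining kept Mrpl51 probe gave 0.33 (adjusted p = 0.206) and rose by 0.60 (adjusted p = 0.0336).

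Over the 72 genes the SD between pools within groups had a median of 0.191 log2 units and that between technical arrays of a pool one of 0.0877, against 0.222 and 0.119 over all genes tested. The median level of the 72 genes in a pool was 9.78, 9.84 and 10.08 in Control, 10.21, 10.32 and 10.52 in EG in vitro and 10.26, 10.26 and 10.57 in EG in vivo. Every transfer pool was thus above every Control pool, and pool 3 was the highest within each group. Over all genes tested the medians of the pools lay between 8.62 and 8.69. Pool 3 was the highest of its group for 43 of the 72 genes in Control, 52 in EG in vitro, and for EG in vivo 54, or 59.7%, 72.2% and 75%, where the shares over all genes tested were 47.1%, 54.1% and 55.7%. These are the pools with the dim arrays, and the part of the dim arrays in this was not tested.

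The 4 genes that did not pass the filter had too little signal for a statement about change. The probes of Mrpl32 and Mrps14 were detected on 0 of 27 arrays. The best probe of Mrpl19 was detected on 1 and that of Mrpl45, whose protein faces the inner membrane at the tunnel exit, on 6. The median raw signals of all probes of these genes were between 122 and 132.

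EG in vitro and EG in vivo were compared directly as well, which asks whether culture before transfer left a mark of its own. Of the 72 genes, 0 passed an adjusted p of 0.05 in limma, as did 0 of all 22958 probes, and 0 of the 72 passed an unadjusted p of 0.05, where 285 of all probes did. With array weights 3 of the 72 passed the unadjusted threshold and 0 the adjusted one. The log2 differences, EG in vitro minus EG in vivo, ran from -0.19 to 0.15 with a median of -0.01. The lowest unadjusted p was 0.141, for Mrps35, which read 9.52, 9.57 and 9.73 in EG in vitro and 9.79, 9.70 and 9.88 in EG in vivo. These pools overlapped. For Mrps12 all EG in vitro pools, at 11.79, 11.82 and 11.89, lay below all EG in vivo pools, at 11.94, 11.93 and 11.94, and 4.28% of all genes tested did so. No gene had all EG in vitro pools above, against 1.19% of all genes. The half-width of the 95% interval of the difference ranged from 0.23 log2 units for Mrpl54 to 1.54 for Mrpl39, with a median of 0.37, and for 70 of the 72 genes the interval lay within a log2 difference of 1, or 2-fold, either way. A difference smaller than these intervals was not detectable with 3 pools a group.

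**Figure D3:**
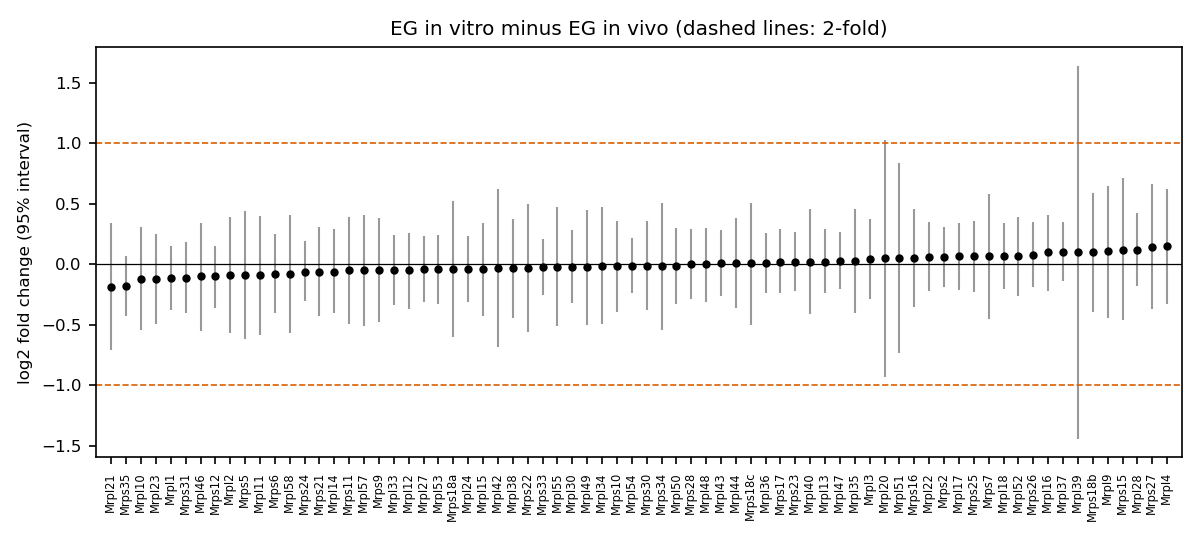
Log2 difference between EG in vitro and EG in vivo (vertical axis, points, with 95% intervals as lines) for 72 genes (horizontal axis), with dashed lines at 2-fold. The points lie between -0.19 and 0.15, and the interval of Mrpl39 is the widest, at 1.54 either way.

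Several probes of the same gene could be compared for part of the genes. Of the 76 genes' 132 probes, 113 passed the filter, and 27 genes had several of these, 68 probes in all. Every such probe rose for 12 of the 27 genes in EG in vitro and for 11 in EG in vivo. In 2 of these genes, Mrps5 and Mrpl3, a second probe passed the filter only through transfer arrays, so that its rise was partly fixed by the filter. Where all probes also passed it in Control, the counts were 10 and 9. Of all 22958 probes kept, 40.5% changed in either direction in EG in vitro, where the share for EG in vivo was 39.2%. The share of all genes with every kept probe higher is not given here, so these counts lack a background of their own. No gene had probes called in opposite directions. The 3 probes of Mrps25 gave log2 fold changes of 0.91, 1.41 and 0.99 in EG in vitro (limma adjusted p = 0.000698, 3.6e-05 and 0.000947). For Mrpl13, by contrast, the chosen probe passed and the others did not, 1 of them detected on all 27 arrays as well, with values of 1.08 (adjusted p = 0.399) and 1.22 (adjusted p = 0.296).

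**Figure D4:**
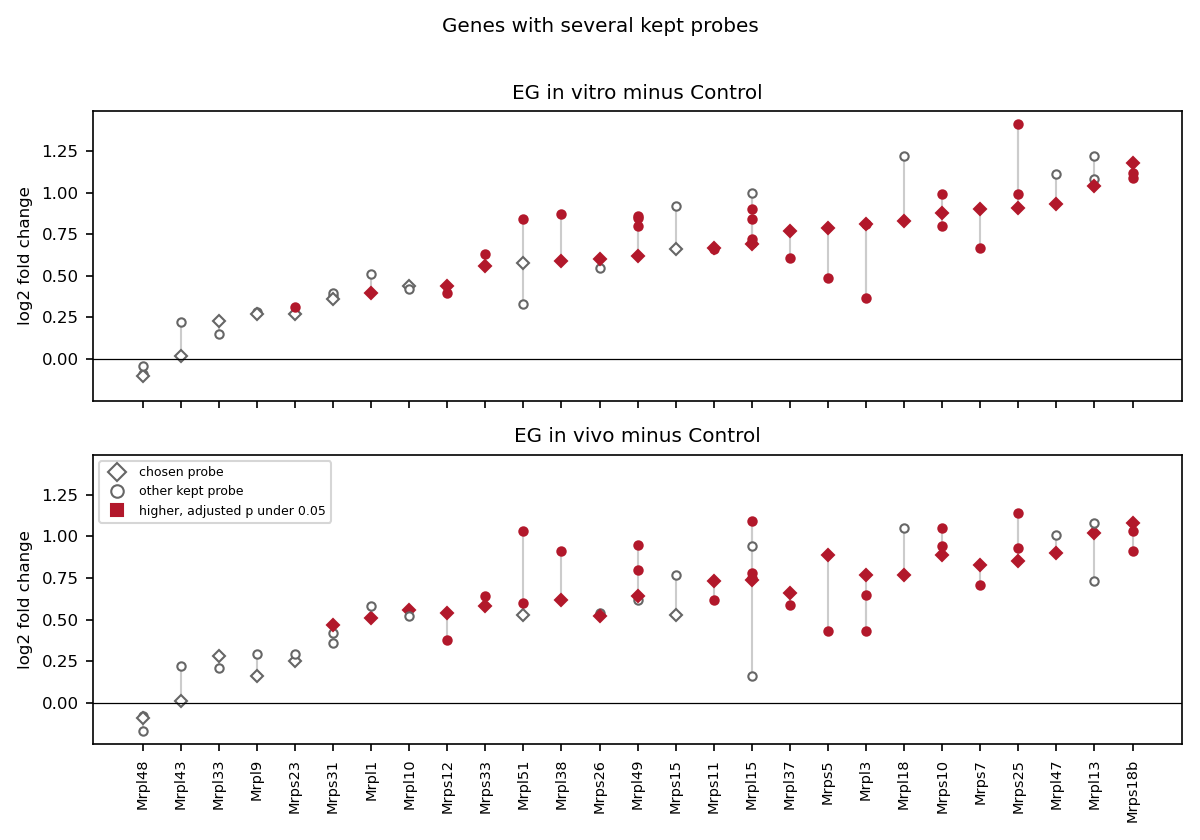
Log2 fold change against Control (vertical axis) of each probe of the 27 genes with several kept probes (horizontal axis), EG in vitro above and EG in vivo below. Diamonds are the chosen probes, circles the others, and red marks those that rose. No probe is called lower.

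The other genes of mitochondrial translation were set beside these, by lists of genes with known roles. Over all genes tested, 21.9% rose in EG in vitro, and the share for EG in vivo was 22.2%. The shares that fell were 23% and 21.2%. Of 4 proteins of the mitochondrial ribosome with other symbols, 3 rose in EG in vitro against 2 in EG in vivo, with median log2 fold changes of 0.57 and 0.58. Ptcd3, a pentatricopeptide-repeat protein of the small subunit, rose by 0.91 (limma adjusted p = 0.000787) and 1.00 (adjusted p = 0.000504), and Chchd1 by 0.71 and 0.75. Of 15 translation factors tested, 6 rose in EG in vitro against 7 in EG in vivo, and none fell, with medians of 0.54 and 0.59. The initiation factors had the largest values. Mtif3, which readies the small subunit for initiation, read 6.16, 5.70 and 6.35 in Control, 7.58, 7.46 and 7.91 in EG in vitro and 7.57, 7.05 and 8.0 in EG in vivo, and rose by 1.58 (adjusted p = 0.00179) and 1.47 (adjusted p = 0.00278). Mtif2, which brings the initiator tRNA, rose by 1.21 and 1.38, and the elongation factor Tsfm by 1.06 and 1.02. Lrpprc, which stabilizes mitochondrial messenger RNA, rose by 0.91 and 0.87.

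Of 14 mitochondrial aminoacyl-tRNA synthetases tested, which charge tRNAs with their amino acids, 7 rose in EG in vitro against 6 in EG in vivo, with medians of 0.46 and 0.43 on the log2 scale. Ears2, which charges tRNA with glutamate, rose by 1.29 (limma adjusted p = 0.000493) and 1.18 (adjusted p = 0.00088), and Sars2 by 0.97 and 0.84. Of 25 genes for assembly of the mitochondrial ribosome and modification of its RNA, 8 rose (32%) and 1 fell in EG in vitro and 10 rose (40%) in EG in vivo, with medians of 0.27 and 0.34. Rcc1l, an assembly factor, rose by 1.25 and 1.27, Tfb1m, which methylates the RNA of the small subunit, by 0.93 and 1.06, and Rpusd3, a pseudouridine synthase, by 0.88 and 0.86. The gene that fell was Mpv17l2, at -0.70 (adjusted p = 0.0445). Of 18 genes for upkeep of mitochondrial DNA and RNA, 5 rose in EG in vitro against 6 in EG in vivo, or 27.8% and 33.3%, with medians of 0.49 and 0.52. The first share is near the 21.9% of all genes tested that rose in EG in vitro, where the share for EG in vivo was 22.2%. They include Tfam, which packages mitochondrial DNA, at 0.76 and 0.68, and the RNA polymerase Polrmt, at 0.60 and 0.70. Of 21 genes for protein import, 9 rose in EG in vitro against 10 in EG in vivo, with a median of 0.38 in both. No gene of the mitochondrial genome was among the annotated symbols analysed here.

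The products of these ribosomes join subunits encoded in the nucleus. Of 75 nuclear genes for subunits of the respiratory chain and ATP synthase, 20 rose and 6 fell in EG in vitro, and 20 rose and 2 fell in EG in vivo, with a median log2 fold change of 0.33 in both. The share that rose, 26.7% in both, is near the 21.9% and 22.2% of all genes tested. The shares of the list that fell, 8% and 2.67%, lie below the 23% and 21.2% of all genes tested. Among those that fell in EG in vitro, Cox8b, at -2.54, Cox6a2, at -2.45, and Cox7a1, at -0.90, encode isoforms of cytochrome oxidase subunits typical of heart and skeletal muscle, and Cox4i2, at -0.96, encodes an isoform found in lung. Of 54 genes for the proteins of the cytosolic ribosome, which makes all other proteins of the cell, 9 rose in EG in vitro against 8 in EG in vivo, or 16.7% and 14.8%, and none fell, with medians of 0.13 and 0.15. These lists were set side by side as descriptions, and differences between them were not tested.

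**Figure D5:**
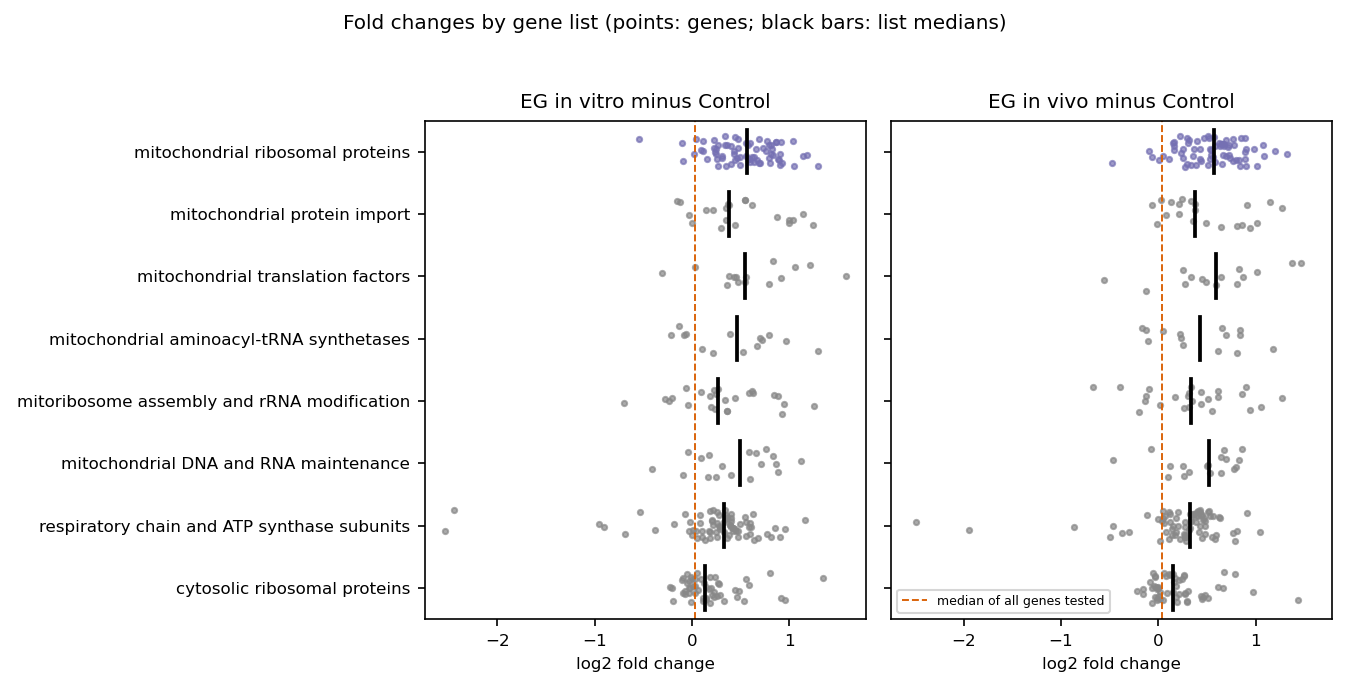
Log2 fold change against Control (horizontal axis) of each gene tested (points) in 8 lists of genes (vertical axis), EG in vitro on the left and EG in vivo on the right. Black bars are list medians and the dashed line is the median of all genes tested. The bar of the mitochondrial ribosomal proteins lies at 0.57 in both panels and that of the cytosolic ribosomal proteins at 0.13 and 0.15.

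Among known regulators of nuclear genes for mitochondrial proteins, 9 were tested, of which 4 rose and 1 fell in EG in vitro and 4 rose and 2 fell in EG in vivo, with median log2 fold changes of 0.54 and 0.53. Of all genes tested, 21.9% and 22.2% rose and 23% and 21.2% fell. Pprc1, a coactivator that responds to growth signals, read 8.23, 8.06 and 8.56 in Control, 9.71, 9.64 and 10.23 in EG in vitro and 9.80, 9.54 and 9.96 in EG in vivo, and rose by 1.57 (SE 0.21, limma adjusted p = 0.000458) and 1.48 (SE 0.21, adjusted p = 0.000699). Myc, which drives growth, rose by 0.83 (adjusted p = 0.00869) and 0.70 (adjusted p = 0.0197). Gabpb1, a subunit of the ETS factor GABP, rose by 0.74 and 0.65, and Nrf1 by 0.54 and 0.58. Esrra, an orphan nuclear receptor that activates respiratory genes, fell by 0.67 (adjusted p = 0.00601) in EG in vitro and by 0.49 (adjusted p = 0.0251) in EG in vivo. Ppargc1a, the coactivator of mitochondrial biogenesis in muscle and brown fat, had -0.50 (adjusted p = 0.0547) in EG in vitro and fell by 0.53 (adjusted p = 0.0443) in EG in vivo. The transfer groups of Pprc1 and Esrra did not overlap with Control.

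Marker genes of other kinds were set against Control as well, and they are given here as measured. Beside them, 21.9% of all genes tested rose and 23% fell in EG in vitro, and 22.2% rose and 21.2% fell in EG in vivo. Of 14 proliferation markers tested, 13 rose in each transfer group, with median log2 fold changes of 2.57 and 2.46, and their summed signal was 6630 to 10300 in the Control pools, 40700 to 43500 in EG in vitro and 36800 to 41700 in EG in vivo. Bub1 and Ccnb2 were detected on no array of any group. The summed signals of the 15 lung epithelium markers were 155000 to 165000 in Control, 33800 to 38200 in EG in vitro and 38800 to 43700 in EG in vivo. Of these markers, Sftpb, a surfactant protein of mature alveolar cells, fell by 3.67 and 3.42. Of 10 endothelium markers, 9 fell in EG in vitro against 10 in EG in vivo, with medians of -1.01 and -0.97. Of 5 leukocyte markers tested, 4 fell in each, with summed signals of 4910 to 6890 in Control, 863 to 1140 in EG in vitro and 954 to 1140 in EG in vivo. Of 10 lung mesenchyme markers, 2 rose and 4 fell in EG in vitro and 2 rose and 3 fell in EG in vivo, with medians of -0.10 and -0.08. The mesenchyme share that rose, 20% in both, is near that of all genes. Of 7 erythroid markers tested, 3 rose and 1 fell in each. In these bulk samples, fewer cells of a type and less RNA per cell cannot be told apart. The part of these differences in the values of the mitochondrial ribosomal protein genes was not tested.

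Markers of heart, brown fat, liver and skeletal muscle are given in the same way. The shares of all genes tested are again 21.9% and 22.2% that rose and 23% and 21.2% that fell. Of 7 heart muscle markers tested, 6 fell in EG in vitro against 4 in EG in vivo, with summed signals of 10300 to 13300 in Control, 3770 to 5760 in EG in vitro and 3960 to 8090 in EG in vivo. Of the brown fat markers, Ucp1, Adipoq, Elovl3, Fabp4 and Ppara were detected on no array. Dio2, which activates thyroid hormone, was the 1 brown fat marker tested. It was detected on 1 Control array, 8 arrays of EG in vitro and 7 of EG in vivo and gave 1.49 (limma adjusted p = 0.0562) and 1.54 (adjusted p = 0.0512), with all transfer pools above Control. Dio2 passed the filter only through transfer arrays, so that this direction was partly fixed by the filter. The liver markers Alb and Fgb were likewise detected on no array, and 0 of 6 liver markers tested passed the threshold (limma), with 4 at an unadjusted p under 0.05 in EG in vitro but 0 in EG in vivo. Apoa1 and Apoa2 were detected on no Control array and could pass the filter only through transfer arrays. For such genes a rise is partly fixed by the filter. Summed liver signals were 296 to 545 in Control, 434 to 3840 in EG in vitro and 376 to 1440 in EG in vivo. Skeletal muscle markers summed to 529 to 590, 463 to 3340 and 442 to 625 in Control, EG in vitro and EG in vivo. Of the 7 tested, 1, Ckm, fell in both comparisons with Control and none rose. In EG in vitro 5 of the 7 fold changes were above 0, with a median of 0.92 and values up to 1.71 for Acta1 (limma adjusted p = 0.161), and 3 of the 7 had an unadjusted p under 0.05. For EG in vivo 3 of the 7 were above 0, with a median of -0.18. The part of these tissues in the values of the mitochondrial ribosomal protein genes was not tested.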

How the data were processed

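Total RNA was hybridised to Illumina MouseWG-6 bead arrays, 27 in all, as 3 technical arrays of each of 3 pools in 3 groups. Mean bead signals per probe and array, an intensity on a linear scale, were deposited by the authors without normalization. Each comes with a detection p-value per array, per the file headers. The authors' processed matrix holds linear intensity normalized between arrays and was used as an alternative; the tool behind it is not stated in these sources.

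From these deposited values, log2 values were computed by the neqc function (limma 3.58.1 under R 4.3.3), which corrects the background with the detection p-values, adds an offset of 16 and normalizes by quantiles. Of 45281 probes, 34885 had 1 gene symbol in the platform's annotation, 18 had several and 10378 had none. To be kept, a probe needed a detection p under 0.05 on 6 or more of the 9 arrays in any group, which left 22958. Technical arrays were averaged, so that n = 3 pools a group and the number of pools limits the precision, and 1 linear model over the 3 groups (lmFit and eBayes) gave 3 contrasts, adjusted over all probes kept (Benjamini-Hochberg, 0.05, two-sided). The fit was tested on simulated data.

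The labels do not say whether equal replicate numbers pair the pools. Deviations from the group means correlated between same-numbered pools at 0.50 to 0.83 in all 9 pairs, and between others at -0.81 to 0.77. Among pools numbered 1 and 2, those of unlike number correlated at 0.35 to 0.77. Pools numbered 3 correlated with other numbers at -0.81 to -0.49. The values thus set number 3 apart but do not tell number 1 from number 2. The block on these numbers is an alternative. Other alternatives were other normalizations, offsets, filters, weights and probe choices, and fits without each pool.

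The members and lists were chosen with earlier results of these data known. Named were, in each contrast, the 12 genes with the highest and the 12 with the lowest log2 fold change of those past the threshold, or the 5 lowest p-values where few passed, and up to 4 such genes of other lists. Genes outside this rule were chosen after their values were seen. Levels of different probes were not compared.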

Additional observations from a re-analysis of the deposited data

How the results depend on the processing

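Under every alternative the median log2 fold change of the genes stayed above 0 against Control. Leaving out 1 pool at a time gave medians of 0.47 to 0.58 in EG in vitro and 0.53 to 0.60 in EG in vivo. It gave 27 to 49 genes higher in EG in vitro and 29 to 43 in EG in vivo, against 43 with all pools, and 0 to 1 lower in each. The shares of all genes tested that rose in these fits were 17.7% to 23.6% and 18.3% to 22%. The other alternatives gave 38 to 57 higher in EG in vitro and 41 to 57 in EG in vivo and 1 lower in each. In them 13.4% to 31.2% and 13.6% to 30.5% of all genes tested rose. The lowest were scaling to a common median (38) and no filter (41). The replicate block, which pairs pools by number, gave 51 and 57 higher, included all 43 of each comparison and brought Mrpl10 and Mrps31 past the threshold in EG in vitro and Mrps17 and Mrpl52 in EG in vivo. It changed no other call of a named gene. With the block 30.6% and 30.5% of all genes tested rose, against 21.9% and 22.2% without it, so calls grew over all genes as well. Array weights gave 57 and 53, with 31.2% and 30.4% of all genes. The authors' processed matrix gave 46 and 47, with 22.1% and 22.6%. Between the transfer groups 0 genes passed under any alternative. Calls of Mrpl1, Mrpl10 and Mrpl13 were lost when all kept probes of a gene were averaged. Scaling to a common median lost calls of Mrps7, Mrpl1, Mrps12, Mrpl27, Mrpl36, Mrpl50, Mrpl52, Mrps17, Mrps18c and Mrps24, the absence of a filter those of Mrpl42, Mrpl10 and Mrps18c, and pools 1 and 2 alone those of Mrpl27, Mrpl36, Mrps17 and Mrps24. No direction that passed was turned. Slide as a block was not run because the file headers give no slide. Limits: with 3 pools a group, probes near background have only rough values, and the fetuses behind a pool are not stated.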
